A study of Chlorocebus sabaeus with 12 samples.

Results

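The comparison described here is that of 6 of the 12 arrays of the series, 3 arrays of chenodeoxycholic acid (CDCA) against 3 arrays of its vehicle DMSO, all from COS-1 cells that carried the S154A mutant of FXR, and the arrays were taken by their titles. COS-1 is a kidney line of the African green monkey. Every culture was first made to express the human mutant transiently for 24 h, and the S154A_CDCA group then received CDCA for 24 h, at a dose that the labels state as 50 mM, whereas the S154A_DMSO group received 0.1% DMSO for the same 24 h. In the other 6 arrays, used for the spread between arrays, for the filter on dim probes and to set the mutants side by side, the same treatments were given to cells with FXR S154D, again with 3 arrays each. Cells with unmutated FXR or without added FXR were not analysed here, the vector and the FXR isoform are not given in the sources used here, and no label says that the 3 replicates were separate cultures, so the errors are those between arrays.

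FXR, encoded by NR1H4, is the nuclear receptor for bile acids. Bound to CDCA, one of its strongest natural ligands, and usually paired with the retinoid X receptor RXR, it raises transcription of genes that bind, export and limit the synthesis of bile acids, above all in the ileum and the liver, and kidney tubules express it as well. In S154A a serine of the receptor is replaced by alanine, which cannot take up a phosphate.

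Values are levels on the log2 scale relative to the 75th percentile of the array's signal, so that 0 marks a gene as bright as that percentile, and changes are CDCA minus DMSO on the same scale, given with the standard error of the fit. "Well above background" is the scanner software's own call for a spot. Since monkey RNA was hybridised to human probes, a dim probe may match the monkey transcript poorly, and levels of different probes are not comparable. Of the 20355 genes tested, 10269 had a name that RefSeq lists as a symbol or synonym in the green monkey, and this held for 12 of the 27 genes called below. The share of spots well above background was 61.6% to 79.8% over the 6 arrays, the extremes being S154A_CDCA 2 and S154A_DMSO 1, and the correlation across genes was 0.985 to 0.994 between CDCA arrays, 0.982 to 0.987 between DMSO arrays and 0.978 to 0.990 between the treatments.

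One corner of the array S154A_DMSO 3 stood apart. There, 94 spots lay more than 3 log2 units below their median on the other 11 arrays although that median was above -2, and the scanner software had flagged 38 of them as outliers and left 56 unflagged. All 94 lay within the first 39 of 532 rows and the first 22 of 85 columns, while the other 5 S154A arrays had 0 or 1 such spot. A square of 40 rows and 40 columns at that corner holds a spot of 703 of the genes tested. Of 126 genes at least 2-fold higher with CDCA, 69 had a spot there, and with the corner spots of that array removed, an alternative added after seeing the data, 58 genes in all and 1 in the corner were at least 2-fold higher. The changes that went with these spots include those of WASF1 (2.85 ± 1.72, and 0.09 ± 0.12 with the corner removed), NUPR1 (2.12 ± 1.22 and 0.17 ± 0.17), NCOA3 (1.48 ± 0.97 and 0.14 ± 0.58), CLDN7 (1.36 ± 0.90 and -0.05 ± 0.23), CYP26B1 (1.05 ± 0.57 and 0.18 ± 0.20) and FOS (1.04 ± 0.49 and 0.28 ± 0.12), none of them called. Of the genes called, FETUB alone has a spot in the corner, and all 27 remained called without it. By the same rule the array S154D_CDCA 1 had 84 low spots, 83 of them unflagged and 2 in the corner. The unflagged ones stayed in the reported fit, and no alternative removed these spots by themselves.

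The design also ties treatment to position on the slide. All 3 DMSO arrays lay at position 1 of their slides, on slides 1, 2 and 3, and no CDCA array did, so that treatment and this position cannot be told apart. CDCA 1 shared slide 3 with DMSO 3, CDCA 3 shared slide 1 with DMSO 1, and CDCA 2 lay on slide 4, scanned on another day. A value "within slide 1" or "within slide 3" below is the difference between those pairs of arrays, with no test.

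No difference in the transcript of the receptor itself was detected between the treatments. NR1H4 lay at 7.46, 7.73 and 7.59 on the CDCA arrays, against 7.65, 7.92 and 7.63 on the DMSO arrays, higher than 99.9% of genes, and the groups overlapped (change -0.14 ± 0.15, 95% interval -0.48 to 0.19, adjusted p = 0.940). The probe lies at chr12:99459659-99459718 in hg17, and its letters are printed here because the array reads the transfected human receptor with it:
NR1H4: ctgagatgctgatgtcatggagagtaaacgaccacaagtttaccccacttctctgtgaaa
RXRA, the partner receptor, lay higher on each CDCA array than on any DMSO array, with means of 3.11 ± 0.11 and 2.88 ± 0.10 (SD, n = 3 each), by a change that was not called (0.23 ± 0.17, adjusted p = 0.912). Of 20 genes of FXR, RXR and their coregulators tested, 0 were called and 14 had a positive change, beside 40.3% of all genes tested. The median of the 20 was 0.07, beside -0.04 over all genes tested.

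Few transcripts passed the test between the treatments, and nearly all of these were higher with CDCA. By limma's test over all genes, at an adjusted p under 0.05, 27 of 20355 genes were called (0.133%), 26 higher (0.128%) and 1 lower (0.00491%). Before adjustment 1207 genes (5.93%) had a p under 0.05. In all 27 the 3 CDCA arrays lay on one side of the 3 DMSO arrays, which held for 11.7% of the 20272 genes with a value on all 6 arrays (3.77% higher and 7.95% lower), and 23 of the 27 were well above background on all 6. The other 4, FGF19, HRG, CCDC37 and AW015664, were well above it on all 3 arrays of 1 of the S154A treatments only, and the first 3 of these passed the filter on dim probes through the CDCA group alone. The changes within slide 1 and within slide 3 had the same direction for all 27, which follows from the lack of overlap and adds no support. Of the 27, 18 were at least 2-fold, with a median size of 1.22.

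Below the threshold the balance ran the other way. Of the genes with a p under 0.05 before adjustment, 351 were higher (1.72% of those tested) and 856 lower (4.21%), and 40.3% of all genes tested had a positive change. Most of this surplus of lower genes lay among dim probes: of the 6785 dimmest genes 575 were lower and 109 higher at that p, with a median change of -0.12, against 75 lower and 100 higher of the 6785 brightest, with a median of -0.02. A change of at least 2-fold with no overlap between the groups was seen for 39 genes higher and 126 lower, and after requiring a signal well above background on all 6 arrays for 23 higher and 6 lower. Calls were spread over the range of levels, with 9 rises and 1 fall among the dimmest, 8 rises in the middle and 9 among the brightest genes.

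**Figure D1:**
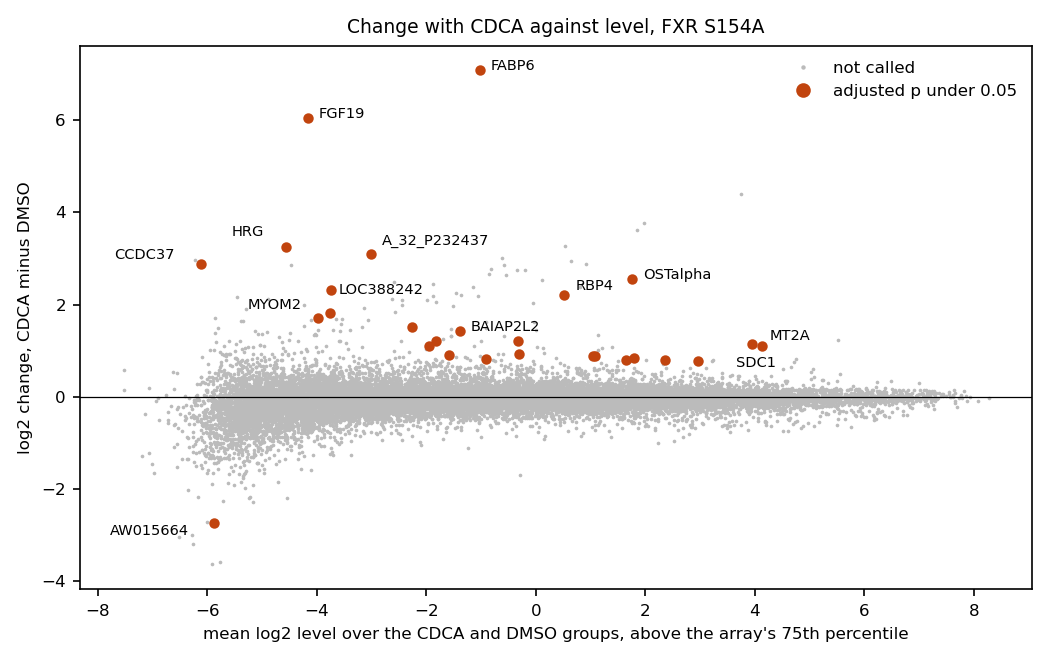
Change with CDCA against DMSO in FXR S154A cells (vertical axis, log2) by mean level over the 6 arrays (horizontal axis, log2 relative to the array's 75th percentile) for the genes tested, with the 27 called in orange. FABP6 and FGF19 stand far above the rest at 7.08 and 6.04, and AW015664 is the only called gene below 0.

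Of 5 genes tested that the ileum uses to handle bile acids, 3 were called higher, among them those with the 2 largest fitted changes. FABP6, the cytosolic protein that carries bile acids through ileal cells, lay at 2.58, 2.53 and 2.45 on the CDCA arrays, against -3.47, -4.89 and -5.32 on the DMSO arrays. The CDCA arrays lay close together, the DMSO arrays were spread more widely near background, and the gap between the groups was far wider than either spread. This is a rise of 7.08 ± 0.57 (95% interval 5.82 to 8.34), or 135-fold (adjusted p = 0.000628), with 5.92 within slide 1 and 7.90 within slide 3. Its probe spans an exon junction in chr5:159591816-159594421 of hg17, on the plus strand, and is shown, like that of OSTalpha, because both genes were measured above background on all 6 arrays:
FABP6: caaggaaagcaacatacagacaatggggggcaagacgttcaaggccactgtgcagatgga
OSTalpha: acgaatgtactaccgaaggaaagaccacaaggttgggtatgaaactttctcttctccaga
With the slide as a block the adjusted p of FABP6 was 0.0503 at a change of 6.91, and in the other 28 of its 29 alternatives it was called.

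FGF19, the hormone released by the ileum after meals that restrains bile acid synthesis in the liver, was read by a pair of probes. On the probe that stood for the gene, the brighter over all 12 arrays, it lay at -1.22, -1.31 and -0.91 on the CDCA arrays, all well above background, against -6.32, -7.64 and -7.59 on the DMSO arrays, none of them well above it, so the rise is a bound of at least 24.0-fold (fitted change 6.04 ± 0.76, adjusted p = 0.0122). On the other probe the change was 6.18 ± 0.42 (adjusted p = 0.000251 in the fit of every kept probe). On the first probe the call was lost in 7 of 29 alternatives. Without any 1 of S154A_DMSO 2 or 3 or S154A_CDCA 1, 2 or 3 the change was 5.81 to 6.12, with an adjusted p of 0.0571 to 0.0900. It was 6.27 with the slide as a block (adjusted p = 0.0930) and 6.12 without slide 4 (adjusted p = 0.120). On the 6 S154A arrays alone FGF19 was still called. After normexp the change was 3.18. Of the FGF hormones and FGF receptors, 8 were tested and FGF19 alone was called; FGF21, a hormone of the liver, had a change of 0.30 ± 0.24, FGFR4, the receptor of FGF19 in the liver, -0.09 ± 0.18, and FGF23, a phosphate-lowering hormone of bone, -1.03 ± 0.21 (adjusted p = 0.214).

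OSTalpha is a subunit of the exporter that passes bile acids across the basolateral membrane. It lay at 3.17, 3.01 and 2.92 with CDCA, against 0.46, 0.76 and 0.22 with DMSO, a rise of 2.56 ± 0.18 (95% interval 2.16 to 2.95), or 5.88-fold (adjusted p = 0.000246), on the probe at chr3:197448296-197448355 of hg17 printed above. The arrays of a treatment lay far closer to each other than to those of the other treatment. A dimmer probe of OSTalpha gave 2.11 ± 0.26 (adjusted p = 0.0125), and the gene was called in all 30 alternatives. The partner subunit OSTbeta, without which OSTalpha does not reach the membrane, lay at -5.26, -4.68 and -5.09 with CDCA, against -5.23, -7.53 and -7.37 with DMSO. Here DMSO 1, the array with most spots well above background, lay among the CDCA arrays, and the change of 1.70 ± 0.69 missed the threshold (adjusted p = 0.830), at 0.14 between the arrays of slide 1 and 2.11 between those of slide 3.

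Of the 8 ileal FXR targets listed, 7 were on the array and 5 were tested. Of these, 3 were called higher, beside 0.128% of all genes tested, and 4 had a positive change, beside 40.3%. The median of the 5 was 2.56. FGF19 and OSTbeta passed the filter on dim probes through the S154A_CDCA group alone, which favours rises in these counts and in the median. The remaining one besides OSTbeta was ABCC2, a canalicular export pump, at -0.03 ± 0.25 on one probe and -0.41 ± 0.24 on another. NR0B2, the corepressor SHP, and SLC10A2, the ileal bile acid importer, were below the filter on dim probes and were not tested. The other fatty acid binding proteins tested were FABP3, the heart form, at 0.46 ± 0.12 (adjusted p = 0.478, and 0.36 ± 0.12 with the corner removed) and FABP5, the epidermal form, at 0.11 ± 0.15.

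**Figure D2:**
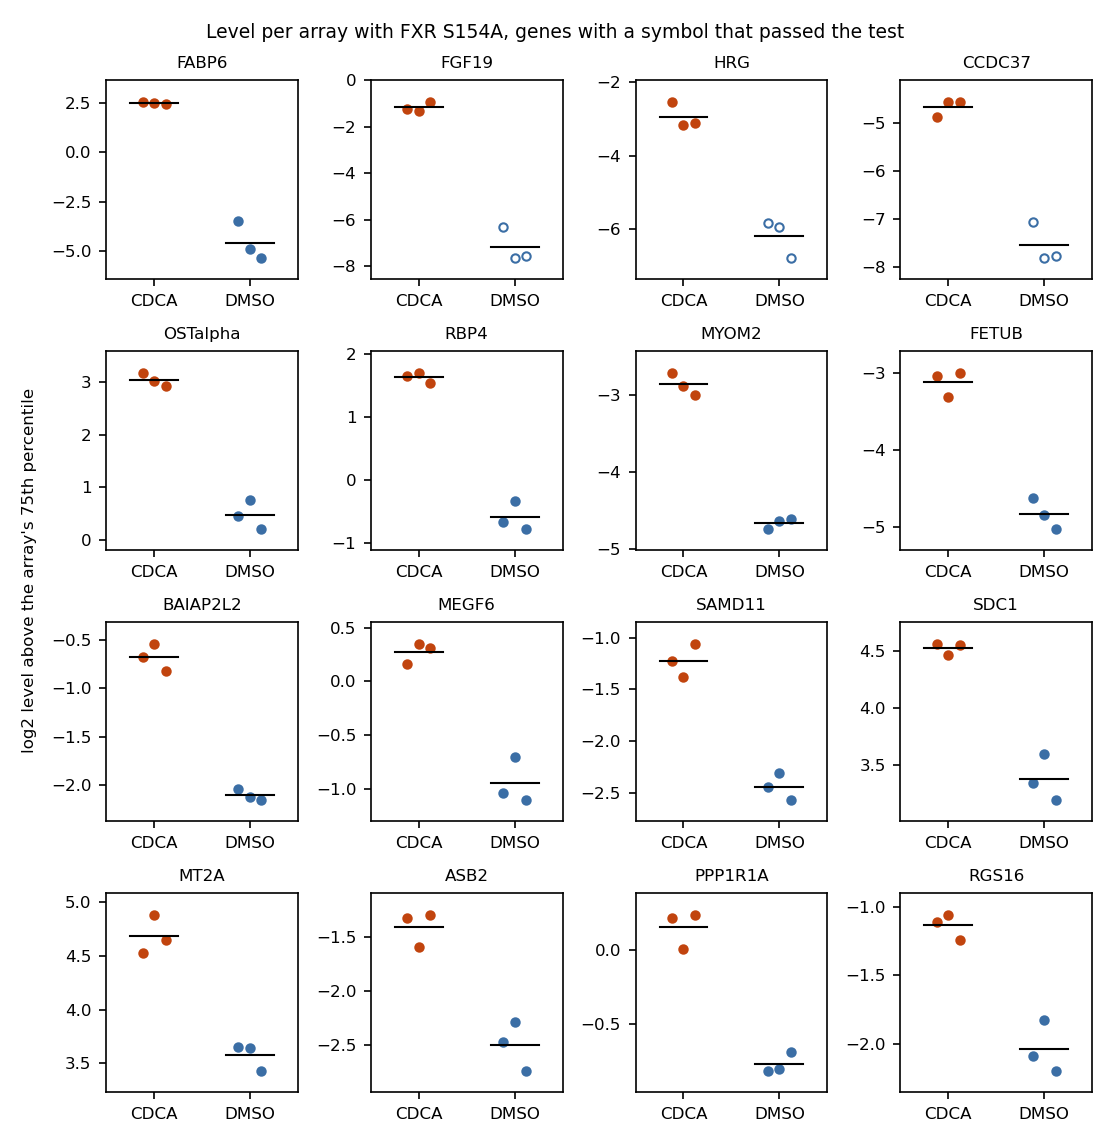
Levels of the 16 called genes with a symbol on each array (log2 relative to the array's 75th percentile), CDCA left and DMSO right in each panel, a bar marking the mean of 3 arrays and open circles a group not well above background on all 3. No CDCA point falls within the range of the DMSO points, and the distance runs from 7.08 for FABP6 to 0.90 for RGS16.

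Among the listed liver FXR targets, plasma proteins and the HRG and FETUB cluster, those called encode secreted proteins or a cell surface proteoglycan. HRG, a plasma glycoprotein, and FETUB, the plasma protein fetuin-B, are neighbours on chromosome 3, with AHSG, the gene of fetuin-A, beside FETUB, and all 3 belong to the cystatin superfamily. HRG lay at -2.53, -3.18 and -3.12 on CDCA arrays, against -5.83, -5.94 and -6.76 on DMSO arrays, of which 1 of 3 was well above background, and rose by a fitted 3.24 ± 0.34 (adjusted p = 0.00467), and by 1.66 after normexp background correction. FETUB lay at -3.04, -3.32 and -3.00 with CDCA, against -4.62, -4.84 and -5.02 with DMSO, a rise of 1.71 ± 0.17, or 3.27-fold (adjusted p = 0.00412). For both genes the lowest CDCA array stood above the highest DMSO array by more than 1 unit. With the corner of DMSO 3 removed FETUB changed by 1.61 ± 0.19 (adjusted p = 0.012), after normexp by 0.94 and with the slide as a block by 1.70 (adjusted p = 0.115). AHSG gave no clear value, at -2.79, -2.17 and -4.11 with CDCA and -3.85, -2.49 and -3.02 with DMSO (change 0.10 ± 0.49 on one probe and -0.47 ± 0.28 on another), and KNG1, the next gene of the cluster, was not tested, being well above background on 0 CDCA arrays and 1 DMSO array.

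RBP4, which carries retinol in the blood, lay at 1.64, 1.70 and 1.54 with CDCA, against -0.66, -0.33 and -0.77 with DMSO. The rise of 2.21 ± 0.15 (95% interval 1.89 to 2.54), or 4.64-fold (adjusted p = 0.000246), was 2.20 within slide 1 and 2.41 within slide 3, and RBP4 was called in all 30 alternatives. No other gene of 20 tested for retinoid carriage and metabolism was called, and 6 had a positive change, beside 40.3% of all genes tested. Of the 6, RARA, a retinoic acid receptor, lay at 1.83, 1.68 and 2.27 with CDCA, against 0.75, 0.67 and 1.10 with DMSO, a change of 1.08 ± 0.29 that missed the threshold (adjusted p = 0.503). ITIH3, a heavy chain of the plasma inter-alpha-trypsin inhibitor, likewise had CDCA arrays at -1.92, -1.75 and -1.92, against DMSO arrays at -3.07, -2.90 and -3.28, and was not called (1.22 ± 0.25, adjusted p = 0.210).

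Of 34 plasma protein genes tested, a list apart from HRG and FETUB, 1 was called higher, RBP4, and 10 had a positive change, the median being -0.12. Over all genes tested 0.128% were called higher, 40.3% had a positive change and the median was -0.04. C8A, a complement component, was at -0.98 ± 0.35 and AMBP, the precursor of alpha-1-microglobulin, at -0.70 ± 0.55, neither called. The 20 liver FXR targets tested, of 37 listed, held 2 called genes, FETUB and SDC1, and 7 with a positive change. Their median of -0.10 was near that of all genes tested. It was -0.01 after quantile normalisation and -0.20 with no scaling, which lowers the changes of all genes nearly alike. Among those not called were PLTP, the phospholipid transfer protein (0.21 ± 0.15), PDK4, the kinase that shuts off pyruvate dehydrogenase (0.30 ± 0.19), and LIPC, hepatic lipase (-0.53 ± 0.21).

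SDC1 encodes syndecan-1, a heparan sulfate proteoglycan of epithelial cells that in the liver takes up lipoprotein remnants. Its levels were 4.56, 4.46 and 4.55 on CDCA arrays, against 3.35, 3.60 and 3.20 on DMSO arrays, a rise of 1.14 ± 0.12, or 2.20-fold (adjusted p = 0.00528), with 1.13 ± 0.13 on a second, dimmer probe (adjusted p = 0.00880). Fits on the S154A arrays alone (adjusted p = 0.0757), with the slide as a block (0.0706) or with no scaling (0.926) did not call it. Of 18 syndecans, glypicans and related genes tested it was the only one called, and 10 had a positive change, beside 40.3% of all genes tested. The median of the 18 was 0.02. SDC4 was at 0.13, SDC3 at 0.24 and GPC1 at 0.38.

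The other called symbols had no theme fixed for them beyond their own families. MYOM2, a myomesin of the M-band of striated muscle, lay at -2.71, -2.88 and -3.00 with CDCA, against -4.74, -4.64 and -4.62 with DMSO (rise of 1.81 ± 0.16, 3.50-fold, adjusted p = 0.000996). It was called in all 30 alternatives, with 1.15 after normexp, and 22 further genes of the sarcomere were tested and not called, with a median over all 23 of -0.08. BAIAP2L2, a membrane-bending protein of the IRSp53 family found at the microvilli of epithelial cells, lay at -0.68, -0.54 and -0.82 with CDCA, against -2.04, -2.12 and -2.15 with DMSO (rise of 1.42 ± 0.10, 2.68-fold, adjusted p = 0.000246). The DMSO arrays lay very close together here, and the gene was called in every alternative except that with no scaling (1.32, adjusted p = 0.279). Another probe of BAIAP2L2 was not well above background on any array. Of 19 genes of its family and of the actin regulators it works with, BAIAP2L2 alone was called and 12 had a positive change, beside 40.3% of all genes tested. BAIAP2L1, at -0.03, -0.30 and 0.09 with CDCA and -0.63, -0.51 and -0.50 with DMSO (0.46 ± 0.13, adjusted p = 0.509), and MTSS1 (0.51 ± 0.11, adjusted p = 0.273) were next. WASF1, with its spot in the corner described, counts among the 12.

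PPP1R1A, an inhibitor of protein phosphatase 1 that acts once phosphorylated by protein kinase A, lay at 0.22, 0.01 and 0.24 with CDCA, against -0.82, -0.81 and -0.69 with DMSO (rise of 0.93 ± 0.10, adjusted p = 0.00576). Its probes disagreed, since a dimmer one changed by 0.31 ± 0.27 (adjusted p = 0.959), and their mean, at 0.62, was not called (adjusted p = 0.549). The call of PPP1R1A was also lost on the S154A arrays alone (adjusted p = 0.0981), with the slide as a block (0.0678), after a correction for GC content (0.0551) and with no scaling (1.00). RGS16, which speeds the switching-off of G proteins, was higher by 0.90 ± 0.11 (adjusted p = 0.0122), at -1.11, -1.06 and -1.24 with CDCA against -2.09, -1.83 and -2.20 with DMSO, and by 0.91 ± 0.50 on a dimmer probe. SAMD11, a protein with a sterile alpha motif domain, rose by 1.22 ± 0.14 (adjusted p = 0.00778), at -1.23, -1.38 and -1.06 with CDCA against -2.45, -2.31 and -2.57 with DMSO. Without DMSO 3, CDCA 1 or CDCA 3 its adjusted p was 0.0507 to 0.0524, at changes of 1.14 to 1.23. MEGF6, a protein of EGF-like repeats, rose by 1.22 ± 0.18 (adjusted p = 0.0380), and by 2.00 ± 0.14 on its dimmer probe (adjusted p = 0.000251).

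ASB2, the substrate receptor of a ubiquitin ligase, rose by 1.10 ± 0.15 (adjusted p = 0.0243), at -1.33, -1.60 and -1.30 with CDCA against -2.47, -2.29 and -2.74 with DMSO. LOC388242, annotated as a pseudogene on chromosome 16, rose by 2.32 ± 0.29, or 4.98-fold (adjusted p = 0.0122), and signal from the gene it copies cannot be told apart from its own. CCDC37, a coiled-coil protein, passed the filter on dim probes through the S154A_CDCA group alone. It was well above background on 3 of 3 arrays with CDCA against 0 of 3 with DMSO, which bounds the rise at 2.08-fold or more (adjusted p = 0.0334). It was not called with no filter on dim probes (adjusted p = 0.0959) or after normexp (0.86, adjusted p = 0.0708), which also gave 1.40 for LOC388242. These were among the less stable calls. Leaving out any 1 of the 6 S154A arrays ended the calls of MEGF6 (adjusted p 0.0564 to 0.210, changes 1.14 to 1.34) and CCDC37 (0.0656 to 0.187, changes 2.75 to 3.12). Leaving out DMSO 1, DMSO 3, CDCA 1 or CDCA 3 ended that of ASB2 (0.0961 to 0.157, changes 0.98 to 1.11), any of those or CDCA 2 that of RGS16 (0.0520 to 0.0804, changes 0.82 to 0.95), and any array but DMSO 1 that of LOC388242 (0.0571 to 0.0868, changes 2.12 to 2.34). Some calls also ended without 1 S154D array. For MEGF6 these were S154D_DMSO 1, 2 or 3 or S154D_CDCA 2 (0.0769 to 0.0985). For CCDC37 they were S154D_DMSO 3 or S154D_CDCA 1, 2 or 3 (0.0596 to 0.0829), and for ASB2 S154D_DMSO 3 (0.0663).

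Metallothioneins, the small cysteine-rich proteins that bind zinc and copper, lay mostly higher with CDCA, with 1 call. MT2A lay at 4.53, 4.88 and 4.65 on CDCA arrays, against 3.65, 3.64 and 3.43 on DMSO arrays, and rose by 1.11 ± 0.13, or 2.16-fold (adjusted p = 0.00695), with 1.07 ± 0.15 on its other probe (adjusted p = 0.0263). Of 12 genes tested, 10 had a positive change and the median was 0.35, against 40.3% and -0.04 over all genes. MT1H (0.82 ± 0.20), MT1X (0.75 ± 0.18), MT1B (0.65 ± 0.15) and MT1G (0.60 ± 0.18) had CDCA arrays above all DMSO arrays and were not called, and the zinc exporter SLC30A1 had a change of -0.48 ± 0.27. The MT2A probe shares a run of 49 bases with that of ENST00000245185 (0.67 ± 0.16, adjusted p = 0.455), so these probes may share signal. No other kept probe shared a run of 16 bases or more with it. Whether other metallothionein genes share signal was not tested. MT2A was not called with no scaling (1.01, adjusted p = 1.00), on the S154A arrays alone (0.0888), with the slide as a block (0.0686) or corrected for probe GC content (0.0551).

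Of the called genes, 11 had no symbol. A_32_P232437, a probe at 134785507 to 134785566 of chromosome 10 in hg17, lay at -1.41, -1.55 and -1.46 with CDCA, against -4.79, -4.30 and -4.59 with DMSO, and rose by 3.09 ± 0.25, or 8.51-fold (adjusted p = 0.000628). ENST00000373208 rose by 1.52 ± 0.18, ENST00000294485 by 0.83 ± 0.12 and NP1165618 by 0.78 ± 0.10. S73202, annotated as an mRNA of argininosuccinate synthetase, the urea cycle enzyme that joins citrulline to aspartate, lay at 1.91, 2.17 and 2.04 with CDCA, against 1.10, 1.43 and 1.20 with DMSO (rise of 0.80 ± 0.12, adjusted p = 0.0373). S73202 and ENST00000294485 were each called in 13 of 30 alternatives. Without any 1 of DMSO 1 or 3 or CDCA 1, 2 or 3 the adjusted p of S73202 was 0.0859 to 0.20 (changes 0.73 to 0.86), and without any 1 of DMSO 1, 2 or 3 or CDCA 1 or 3 that of ENST00000294485 was 0.103 to 0.186 (changes 0.77 to 0.85). Leaving out any 1 S154D_DMSO array also ended both calls (adjusted p 0.0589 to 0.0953), as did leaving out S154D_CDCA 3 (0.0632 and 0.0667). The probe that bears the symbol of that enzyme, ASS, had a change of like size that was not called, at 1.48, 1.45 and 1.75 with CDCA against 0.65, 0.98 and 0.84 with DMSO (0.73 ± 0.15, adjusted p = 0.215). Of 18 genes of the urea cycle and of arginine metabolism tested, 0 were called and 7 had a positive change, beside 40.3% of all genes tested. NAGS, which makes the activator of the cycle's entry step, was at 0.29 and ASL, the enzyme after ASS, at 0.07.

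The 4 bright called probes with no name had changes of nearly the same size. A_24_P178444 lay at 2.65, 2.74 and 2.90 with CDCA, against 1.82, 2.06 and 1.99 with DMSO (rise of 0.81 ± 0.11, adjusted p = 0.0243). A_24_P358606 rose by 0.89 ± 0.13, A_24_P367100 by 0.88 ± 0.11 and A_24_P306814 by 0.85 ± 0.13, each without overlap between the groups. Whether these probes read the same transcript was not tested, so they may not be separate counts of a response. A_24_P306814 and A_24_P178444 were called in 10 and 13 of 30 alternatives, and A_24_P358606 and A_24_P367100 in 16 and 23.

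The only called fall was that of AW015664, a transcript without a symbol, given here because it is the only one. Its levels were -7.04, -7.07 and -7.65 on CDCA arrays, of which 0 of 3 passed background, against -4.06, -4.35 and -5.12 on DMSO arrays, of which 3 of 3 did. The fall is thus at least 2.86-fold (fitted change -2.74 ± 0.35, adjusted p = 0.0122). The fall was not called without DMSO 1, DMSO 2, CDCA 1 or CDCA 3 (changes of -2.85 to -2.52, adjusted p 0.0627 to 0.0900) or after normexp background correction (-0.81, adjusted p = 0.118). Among genes with a symbol, no overlap between the groups and every array well above background, the largest negative changes were those of VGLL2, a cofactor of TEAD factors (-1.46 ± 0.35, adjusted p = 0.396), and TWIST1, a factor of mesenchymal cells (-1.29 ± 0.33, adjusted p = 0.465). STX1B2, a syntaxin of synapses, followed at -1.03, ENO1B, an enolase, at -0.97 and ZNF575, a zinc finger protein, at -0.96 ± 0.67, whose other probe was at -0.08 ± 0.16. None of these 5 was called.

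Just short of the threshold lay PUS1, which makes pseudouridine in RNA (0.71 ± 0.11, adjusted p = 0.0562), and HES1, a repressor induced by Notch (0.75 ± 0.13, adjusted p = 0.121). HES1 lay at 2.11, 2.13 and 1.98 with CDCA, against 1.36, 1.12 and 1.50 with DMSO, without overlap, while its other probes changed by 0.83 ± 0.46 and 0.10 ± 0.30. KRT86, a hair keratin, was at 1.33 ± 0.24 (adjusted p = 0.121) and CSF1R, the receptor of macrophage colony-stimulating factor, at 0.79 (adjusted p = 0.123). The others of the 10 symbols next in order of p, again with no overlap between the groups, were GPSM1 (0.61), WDFY4 (1.29), LRFN4 (0.62), PAQR4 (0.87), EFNB1, the ligand ephrin-B1 (0.52), and LRRC38 (0.72), with adjusted p-values of 0.118 to 0.138.

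Bile acid synthesis held no called enzyme. Among the 10 tested, 2 lay higher with CDCA, beside 40.3% of all genes tested, and the median was -0.03. CYP7A1, the rate-limiting enzyme, was below the filter. CYP7B1, of the alternative pathway, lay at -3.65, -3.35 and -3.62 with CDCA, against -3.27, -3.19 and -3.31 with DMSO (-0.28 ± 0.12, adjusted p = 0.830). Of 14 bile acid transporters tested, 1 was called, OSTalpha, and 8 had a positive change, beside 40.3% of all genes tested. The median of the 14 was 0.09. SLCO2A1, a prostaglandin carrier of the organic anion family, lay at 0.42, 0.40 and 0.37 with CDCA, against -0.06, 0.04 and -0.11 with DMSO, which is a tight separation that missed the threshold (0.44 ± 0.08, adjusted p = 0.138). ABCB11, the bile salt export pump of the liver, was below the filter. Of the other receptors listed for bile acids, EGFR among them, 6 were tested, and none was called or had a positive change. GPBAR1, the membrane receptor TGR5, was at -0.20 and VDR, the vitamin D receptor, at -0.02. Isoforms of protein kinase C, which phosphorylates FXR, had a median of 0.04 over 11 tested, with 0 called.

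Most ATF4 and CHOP targets and most chaperones of the endoplasmic reticulum had small positive changes, and none was called. ATF4 and CHOP are the factors that adjust amino acid supply under stress. Of 28 targets of these factors, 24 had a positive change, beside 40.3% of all genes tested. CDCA arrays lay above all DMSO arrays for 12 of the 28, beside 3.77% of genes with a value on every S154A array. The median change of the 28 was 0.28, and 0.25 with the corner removed. The largest was VEGF, the vascular growth factor, at 0.40, 0.30 and 0.07 with CDCA and -0.52, -0.40 and -0.12 with DMSO (0.61 ± 0.14, adjusted p = 0.315), once NUPR1 is set aside for its corner spot. SLC7A5, a leucine importer, was at 0.49 ± 0.16, PHGDH, the entry enzyme of serine synthesis, at 0.46 ± 0.17, DDIT3, which is CHOP itself, at 0.43 ± 0.18, and ATF4 at 0.38 ± 0.21. For 21 chaperones and folding factors of the endoplasmic reticulum the median was 0.14 with 18 positive, beside 40.3% of all genes tested. With no scaling between arrays the median of the 21 was 0.05, with 11 positive. Leaving out the scaling lowers the changes of all genes nearly alike, that of SDC1 for example from 1.14 to 1.04. CANX was at 0.49 and HSPA5, the chaperone BiP, at 0.17. These counts are descriptions and carry no test.

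Other lists lay close to the median of all genes, with 0 called. The medians were 0.02 over 29 immediate early genes, 0.04 over 20 NRF2 targets, 0.04 over 17 NF-kB targets, -0.01 over 21 interferon-stimulated genes, -0.08 over 29 cell cycle genes and -0.06 over 20 p53 targets. For metabolism they were -0.07 over 28 genes of cholesterol synthesis and uptake, -0.01 over 22 of fatty acid synthesis, 0.02 over 19 of fatty acid oxidation and -0.10 over 19 drug-metabolising enzymes. The medians of 27 matrix genes and 15 housekeeping genes were 0.02 and -0.05.

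**Figure D3:**
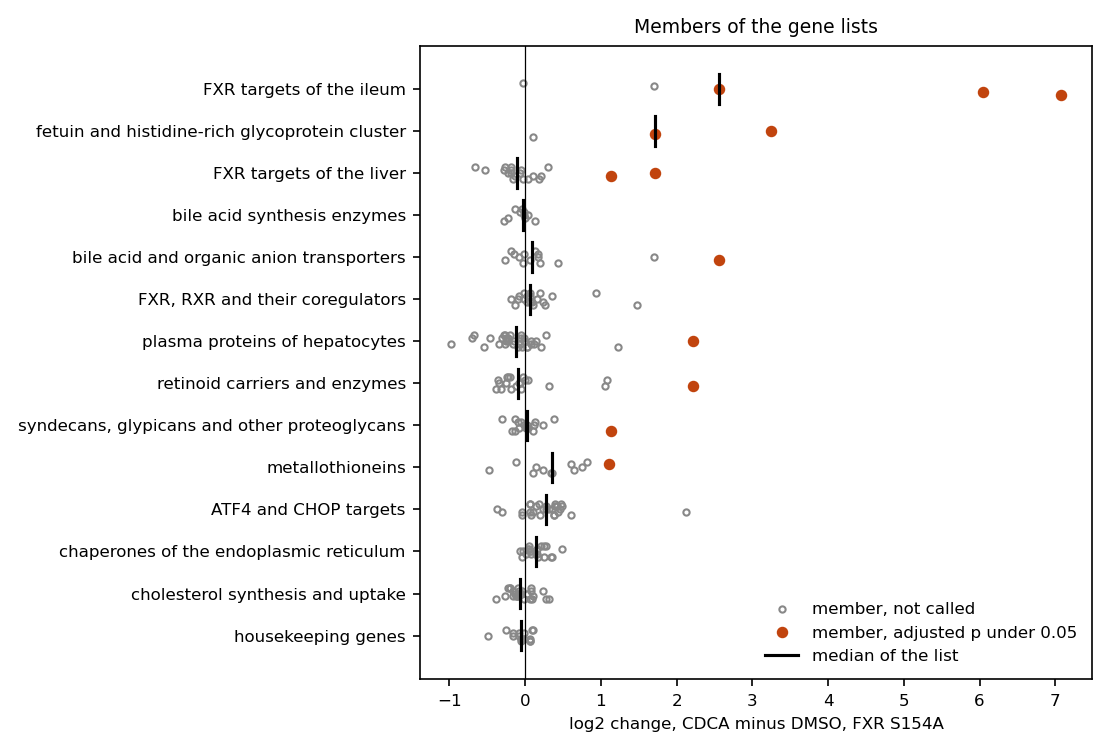
Changes with CDCA against DMSO in FXR S154A cells (log2, horizontal axis) of the members of 14 lists, called genes filled and the black bar at the median of the list. The ileal FXR targets are the only list with a median above 2. FGF19 and OSTbeta among them passed the filter on dim probes through the S154A_CDCA group alone. The metallothioneins and the ATF4 and CHOP targets lie mostly right of 0 with 1 and 0 called.

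Markers of the line and of other cell types gave overlapping or adjoining ranges on both treatments. Well above background on all 6 arrays were 11 of 19 kidney, 10 of 15 fibroblast and 12 of 13 epithelial markers, beside 7 of 19 hepatocyte, 4 of 15 enterocyte, 11 of 18 leukocyte and 4 of 10 endothelial ones. The summed linear level of 13 kidney markers tested was 45.3 to 53.5 on CDCA arrays and 47.3 to 54.5 on DMSO arrays, and that of 12 fibroblast markers was 178 to 218 and 186 to 214. Hepatocyte markers summed to 3.89 to 4.82 with CDCA and 3.61 to 4.76 with DMSO, and enterocyte markers to 0.904 to 1.14 and 0.857 to 1.04. Leukocyte markers came to 5.68 to 7.23 with CDCA and 5.41 to 7.68 with DMSO, and endothelial ones to 1.60 to 1.81 and 1.74 to 1.96. Epithelial markers summed to 135 to 140 with CDCA and 115 to 135 with DMSO, ranges that meet at their ends, and CLDN7, 1 of these markers, has a spot in the corner described. Their part in the results was not tested.

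For 16 of the 27 genes the response of FXR S154A cells was called different from that of FXR S154D cells, on the same 3 arrays a group. The 27 were picked by their S154A change, which is part of this difference. A surplus of such calls among them is therefore no independent support. Called for the difference itself, S154A response minus S154D response, were 28 of 20355 genes (0.138%), 19 of them higher (0.0933%) and 9 lower. Across genes the S154D change followed the GC content of the probe (Spearman's rho -0.56, beside -0.11 for S154A, over 20355 genes, which are not independent), and after a correction for it 7 differences were called, 6 of them among the 28. FABP6 changed by 7.08 with S154A and 0.16 with S154D (difference 6.92, adjusted p = 0.0213), OSTalpha by 2.56 and 0.20 (2.36, adjusted p = 0.0213), RBP4 by 2.21 and 0.26 (1.95, adjusted p = 0.0213), and BAIAP2L2 by 1.42 and 0.23 (1.19, adjusted p = 0.0213). For FGF19 the changes were 6.04 and 0.21, and the difference of 5.83 was not called (adjusted p = 0.0631). On its other probe, where 0 of 3 S154D arrays of either treatment were well above background, they were 6.18 and -1.37, and the difference of 7.54 ± 0.60 was called (adjusted p = 0.00368 in the fit of every kept probe). MT2A, which was at 0.40 with S154D without overlap between its treatments, had a difference of 0.71 (adjusted p = 0.0875).

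With S154D, 12 of the 27 changes had the same sign as with S154A, and in 3 of these, BAIAP2L2, MT2A and ENST00000373208, the S154D groups did not overlap either; over all genes tested 20.2% had S154D groups without overlap and higher with CDCA, and 13.4% lower. Of the 4 bright probes with no name, 3 were lower without overlap, as were PPP1R1A and ENST00000294485. A_24_P178444 was called lower with S154D at -0.42 and A_24_P306814 at -0.49, the only 2 of the 27 called there, where 6.55% of all genes were called higher and 3.65% lower. A_24_P358606 was at -0.36. Among other probes of called genes, in the fit of every kept probe, that of MT2A was called higher with S154D (0.71, adjusted p = 0.0279) and that of SDC1 lower (-0.66, adjusted p = 0.0272). Over all members the S154D medians were 0.16 for the ileal targets, 0.03 for the metallothioneins and 0.00 for the ATF4 and CHOP targets. The difference kept its sign in every alternative for each of the 27, but its calls were few: OSTalpha and RBP4 passed in 18 of 29 alternatives, FABP6 in 16 of 28 and BAIAP2L2 in 13 of 29.

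**Figure D4:**
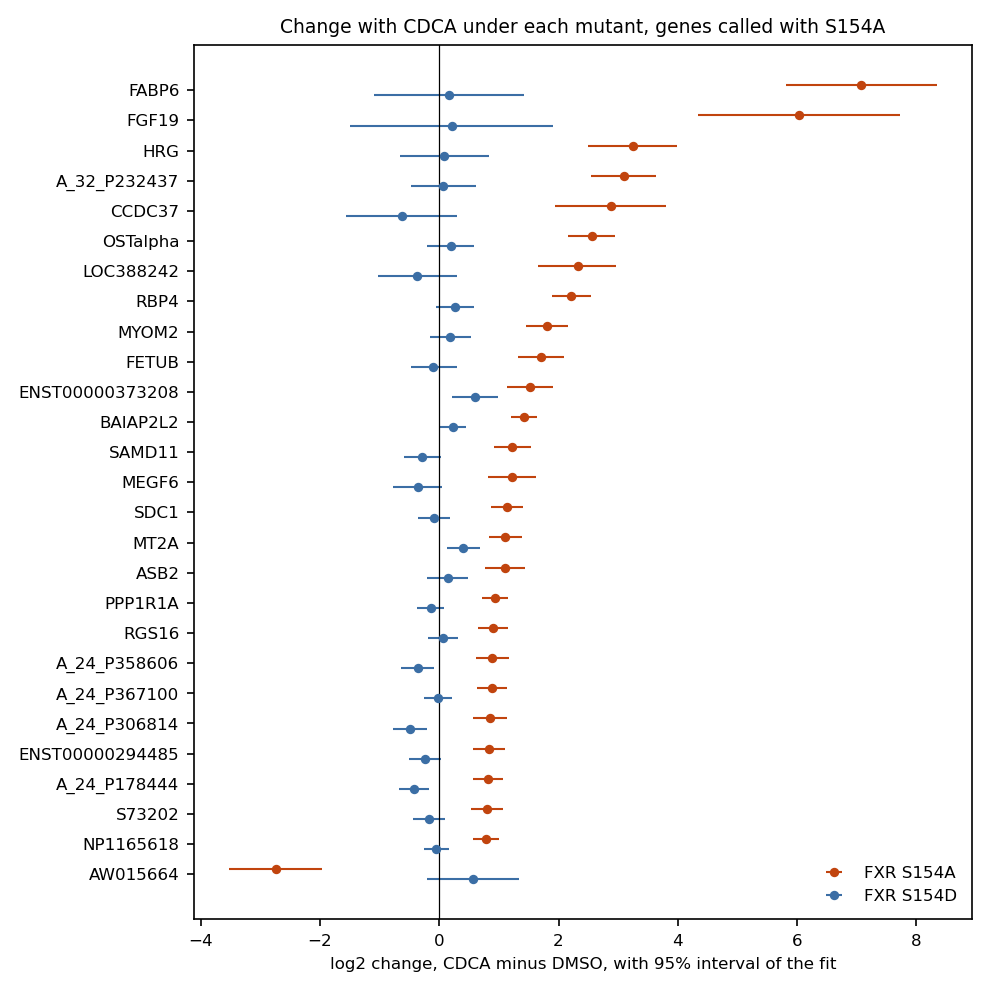
Change with CDCA against DMSO (log2, with 95% intervals) of the 27 genes called in FXR S154A cells, shown for S154A and for S154D. The S154D values lie near 0 for the largest rises, at 0.16 for FABP6 and 0.20 for OSTalpha, and are negative for A_24_P178444 and A_24_P306814.

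The calls in S154A did not rest equally on the processing. In all, 4 genes, OSTalpha, RBP4, HRG and MYOM2, were called in every alternative in which they were tested, 18 in at least 20, and 6 in less than 50% of them, and no change reversed. The slide as a block left the fewest, 5 (BAIAP2L2, MYOM2, OSTalpha, HRG and RBP4), and without any 1 array 13 to 28 were called.

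**Figure D5:**
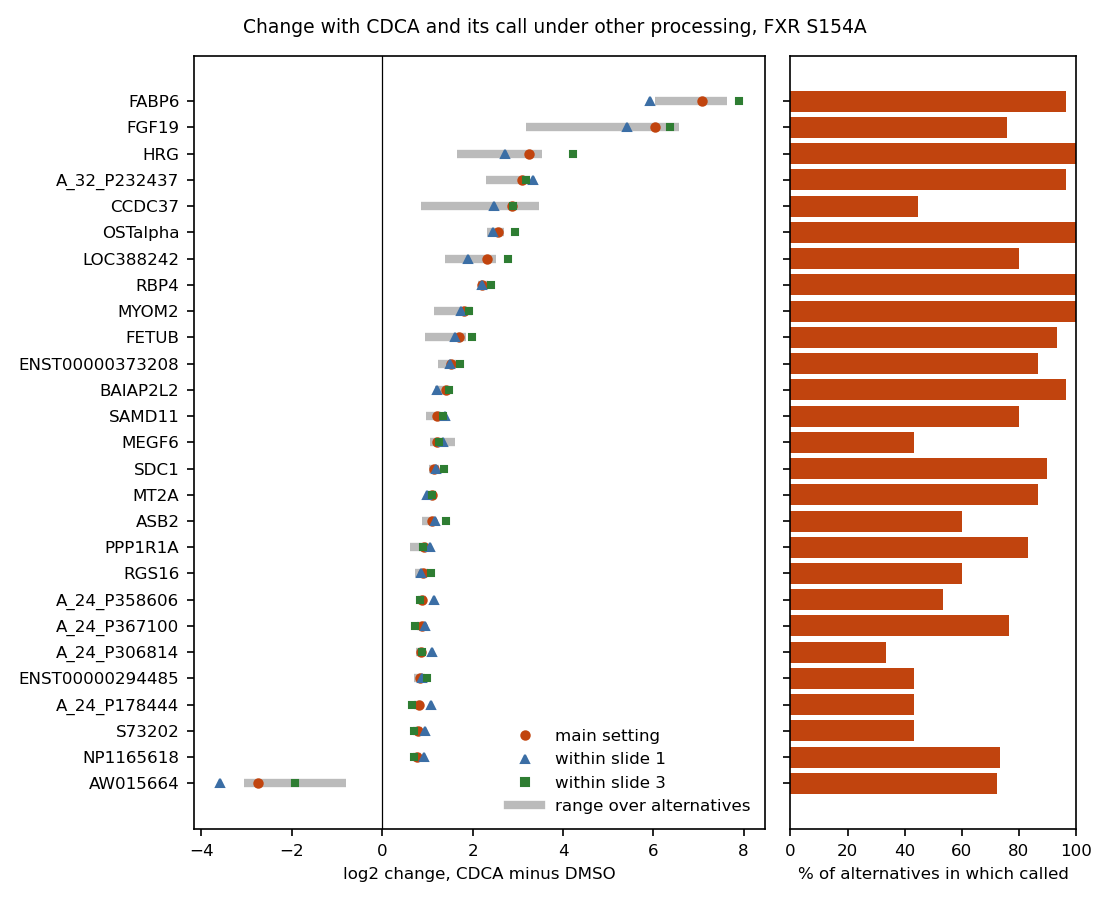
The change of each of the 27 called genes (log2) in the reported fit, within slide 1, within slide 3 and over the range of the alternatives (grey), with the percentage of alternatives in which the gene was called on the right. OSTalpha, RBP4, HRG and MYOM2 reach 100%, and all values of a gene lie on the same side of 0.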

How the data were processed

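The 12 arrays are Agilent one-colour whole human genome arrays. The deposited scanner files hold, per the file headers, intensities that Feature Extraction 9.5.3.1 had background-subtracted and detrended (the submitters' processing notes name version 12), with probe positions in hg17; the deposited table of the series holds the same intensities, equal to them for all 45015 features. The intensities were put on the log2 scale here, from the deposited linear values, and each array's 75th percentile of non-control spots was subtracted. Outlier-flagged spots were dropped, and spots were averaged to probes. A probe was kept where a whole group of 3 arrays, of the 4 groups, lay well above background, and the brightest stood for its gene name. limma 3.58.1 in R 4.3.3 (figures with matplotlib 3.10.9 in Python 3.11.15) fitted 4 group means to all 12 arrays and moderated the variances (2.3 prior and 8 residual degrees of freedom). Tests were two-sided and adjusted by Benjamini-Hochberg over the 20355 genes; a gene was called at an adjusted p under 0.05. For "at least" folds the dim group's values were raised to the dimmest well-above probe of their array. The number of arrays limits the precision. Deviations of same-numbered samples from their group means correlated by -0.05, 0.25 and 0.11, not all above 0.1, so the numbers were not treated as pairs. Arrays that shared slide 1 or slide 3 correlated by 0.11 and 0.18, both above 0.1. The slide was still left out of the reported fit. It was a block in an alternative, in which 5 genes were called.

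The comparison, its members and the lists were chosen with earlier results of these data known, although no measured value enters the choice of arrays. Genes named are all those called, the next 10 symbols by p with no overlap, the 5 largest falls by the same rule with every array well above background, and the receptor and FXR targets; list members are named by size of change or role. Some genes and probe sequences are not reported here. Promoter sequences were not used here.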

Additional observations from a re-analysis of the deposited data

Results flagged for a closer look

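The response to CDCA of FXR S154A cells differed from that of FXR S154D cells, by limma's test of the difference itself (S154A minus S154D, log2, adjusted p under 0.05), for 16 of the 27 genes. Since the 27 were picked by the S154A change, which is part of the difference, their number is no independent support. The difference was 6.92 for FABP6, 3.15 for HRG, 3.02 for A_32_P232437, 2.68 for LOC388242, 2.36 for OSTalpha, 1.95 for RBP4, 1.80 for FETUB, 1.62 for MYOM2 and 1.51 for SAMD11. It was 1.33 for A_24_P306814, 1.25 for A_24_P358606, 1.23 for A_24_P178444, 1.23 for SDC1, 1.19 for BAIAP2L2 and 1.07 for PPP1R1A. AW015664 was the only one with a negative difference, at -3.31. Groups of 3 arrays were not tested for outlying samples.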

How the results depend on the processing

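The 27 calls with S154A numbered 15 (9 higher, 6 lower) with no scaling between arrays, 12 on the 6 S154A arrays alone and 5 with the slide as a block, and 13 to 28 with 1 array left out. Without slide 4, an alternative chosen after seeing the data, 19 were called, 15 of them among the 27. The 28 calls of the difference numbered 122 after quantile normalisation, 9 with centring on the median, 2 with no scaling, 44 after normexp, 131 with a filter on all 12 arrays, 72 with a filter on the S154A arrays, 59 with every probe tested, 15 with the slide as a random block, 99 with a trended and robust variance and 7 after a correction for GC content. It was 0 with no filter (4178 at an unadjusted p under 0.05 by limma), 0 with the slide as a block (3058) and 0 without slide 4 (5535), and ranged from 0 to 62 with 1 array left out, so the count of the difference depends strongly on the processing. With the replicate block, 22 genes were called with S154A and 6 for the difference. ABCC2, at -0.03, was at -0.22 to 0.07 with 1 array left out, 0.04 after quantile normalisation, 0.01 with median centring, 0.10 with the slide as a block, 0.04 without slide 4 and 0.41 within slide 3. AHSG, at 0.10, was at -0.33 to 0.64 with 1 array left out, 0.00 with no scaling, -0.19 as the mean of its probes, -0.33 without slide 4 and -0.25 within slide 1. Of 273 list medians recomputed, 62 moved and 29 changed sign. The cause of these differences was not tested. Signal over background limits OSTbeta, AHSG and the targets not tested.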
